A study of Mus musculus with 4 samples.

Results

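The Dlx family of the mouse comprises 6 homeobox genes, Dlx1 to Dlx6, and each was read by 1 of the 29922 probes of the array. The members were taken by gene symbol from the platform's probe annotation, a rule that uses no measured value, and all 6 were found among 16637 named genes. Whole embryonic mandibles of C57BL/6 mice at stage E11.5 were profiled on 4 Cy5-labelled arrays. The 2 control arrays carried RNA of wild-type embryos. The other 2 carried RNA of embryos with a conditional overexpression allele of Bmp4 (Bmp4 OE), which were given doxycycline for 24 hours. Bmp4 is a secreted ligand of the bone morphogenetic protein (BMP) family. The design compares Bmp4 OE with control and asks which mandibular genes follow the BMP dose. The sources used here do not give the driver or the cell type of the transgene, whether controls received doxycycline, or whether arrays of a group came from separate embryos. Effects of doxycycline, of the allele and of Bmp4 thus cannot be told apart. Every p-value rests on the spread between arrays, in limma (a linear-model test) shared in part over all probes, and this may be a technical spread.

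Dlx genes encode homeodomain transcription factors that are expressed in nested domains along the proximal to distal axis of the pharyngeal arches. They lie in convergently transcribed pairs that share enhancers: Dlx1 and Dlx2 on chromosome 2, Dlx3 and Dlx4 on chromosome 11, and Dlx5 and Dlx6 on chromosome 6 of the mouse. Dlx1 and Dlx2 are expressed in both jaws and pattern the upper jaw and the proximal arch, Dlx5 and Dlx6 are restricted to the lower jaw and give it its identity downstream of endothelin-1, and Dlx3 and Dlx4 are expressed more distally. Dlx3 is also a gene of the surface ectoderm and its appendages.

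Of the 6 members, 2 (Dlx1 and Dlx2) had a promoter entry in the RefSeq promoter table (build GRCm38.p6). The 250 bases before the annotated start of each are shown because these neighbours on chromosome 2 did not move together. The Dlx1 window is chr2:71529195-71529444 on the plus strand and the Dlx2 window is chr2:71546755-71547004 on the minus strand, both written 5′ to 3′ along the gene, with capitals for a match to a searched motif.
Dlx1: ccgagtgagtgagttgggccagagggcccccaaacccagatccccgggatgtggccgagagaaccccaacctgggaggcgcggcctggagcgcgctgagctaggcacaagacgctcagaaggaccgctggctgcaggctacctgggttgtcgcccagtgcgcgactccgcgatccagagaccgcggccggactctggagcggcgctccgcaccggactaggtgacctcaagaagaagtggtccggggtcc
Dlx2: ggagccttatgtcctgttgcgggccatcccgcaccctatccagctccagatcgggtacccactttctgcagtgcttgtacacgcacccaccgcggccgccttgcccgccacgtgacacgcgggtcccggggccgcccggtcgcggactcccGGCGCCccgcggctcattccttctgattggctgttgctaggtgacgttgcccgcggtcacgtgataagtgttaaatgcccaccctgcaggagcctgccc

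Both windows were searched on both strands for GGCGCC, a GC-rich sequence bound by BMP-responsive Smads, for CAGAC, the Smad box, and for TAATTA, the core bound by Dlx and Msx homeodomains. GGCGCC and TAATTA are their own reverse complements, and no 2 matches overlapped. The Dlx2 window held 1 match to GGCGCC, 93 bases before the start, and no match to the other motifs, while the Dlx1 window held none of the 3. Of 32851 promoter entries, 9.59% held GGCGCC in the same window, 42.2% held CAGAC and 4.84% held TAATTA. The windows had a GC content of 68.0% (Dlx1) and 66.4% (Dlx2), against a median of 52.4% over all promoter entries. A match describes the letters only.

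Dlx1 was lower and Dlx2 and Dlx3 were higher in Bmp4 OE mandibles, and Dlx4, Dlx5 and Dlx6 did not pass the test. At an adjusted p of 0.05 in limma, 2 of the 6 Dlx genes rose, 1 fell and 3 did not pass. Of all probes, 14.8% passed in either direction, 6.39% as higher and 8.41% as lower. The median log2 fold change of the 6 genes was 0.0025 and that of all probes was 0. All 6 probes read above the median log2 intensity of 7.95 on every array. Dlx4 lay nearest to it, between 7.98 and 8.24, and the median is not a limit of detection. The values of the 2 groups did not overlap for 4 of the 6 genes, as for 60.2% of all probes. Of the 6 genes, 2 were higher without overlap and 2 lower, against 29.2% and 31.0% of all 29922 probes. An unadjusted p under 0.05 was found for 4 of the 6 genes and for 33.0% of all probes. Brighter probes passed more often. When probes with a mean below the median were dropped, 4141 of the 14962 left passed in limma. In that fit 6648 had an unadjusted p under 0.05, and the Dlx counts stayed at 3 and 4 of 6.

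**Figure D1:**
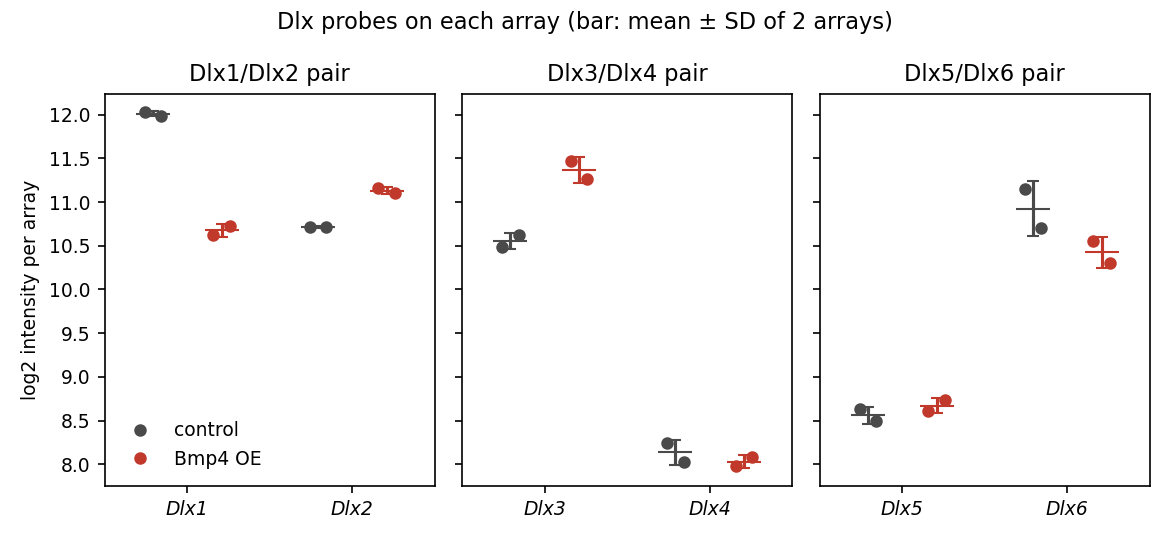
Log2 intensity (vertical axis) of the Dlx1 to Dlx6 probes on each of the 4 arrays, grouped by linked pair, with control arrays in grey and Bmp4 OE arrays in red; bars give the mean ± SD of 2 arrays. Dlx1 lies between 11.99 and 12.03 in controls and between 10.62 and 10.73 in Bmp4 OE, while the points of the groups overlap for Dlx4 and Dlx5; heights are not comparable between genes, because each is read by a different probe.

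Dlx1, which with Dlx2 patterns the proximal arch and the upper molar region, had the largest change of the family. Its probe (mMC005685) read 12.03 and 11.99 in the 2 controls and 10.62 and 10.73 in the 2 Bmp4 OE arrays (log2 intensity). Both Bmp4 OE arrays were lower than both controls by at least 1.26, far beyond the difference between arrays of a group. Dlx1 fell 2.52-fold, with a log2 fold change of -1.34 ± 0.11 (SE; 95% interval -1.60 to -1.07; limma, adjusted p = 0.00472). Of all probes, 0.521% had a lower log2 fold change. Dlx1 was also the only member past the study's own threshold (at least 2-fold and an unadjusted p under 0.05), which 2.63% of all probes met. In bulk tissue, fewer cells that express a gene and less RNA per cell cannot be told apart.

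Dlx2, its partner in the same locus, went the other way by a smaller amount. The probe (mMC007727) read 10.72 and 10.71 in controls and 11.16 and 11.10 in Bmp4 OE arrays (log2 intensity), with both Bmp4 OE arrays higher. Dlx2 rose 1.33-fold, with a log2 fold change of 0.42 ± 0.10 (SE; 95% interval 0.16 to 0.67). This passed narrowly (limma, adjusted p = 0.0498), and 75.4% of all probes had a smaller change in either direction. The arrays of each group agreed closely for this probe, differing by 0.01 and 0.06.

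The difference between the responses of Dlx1 and Dlx2 was measured within each array, which sets the change of a probe against that of its partner and not their levels. Relative to the control mean, the log2 ratio of Dlx1 over Dlx2 was 0.02 and -0.02 in controls and -1.84 and -1.67 in Bmp4 OE arrays. The groups did not overlap, and the ratio changed by -1.75 ± 0.09 (SE) on the log2 scale, or 3.36-fold. The SE of a pair's ratio comes from the spread of that ratio between arrays alone. In limma the SE of a single gene also draws on the spread of all probes, so these SEs cannot be compared. An exact permutation test of 2 arrays against 2 gave p = 0.333 (two-sided), which is the smallest p this design allows, and the same holds for the other 2 pairs, so adjustment over the 3 pairs leaves it at 0.333.

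**Figure D2:**
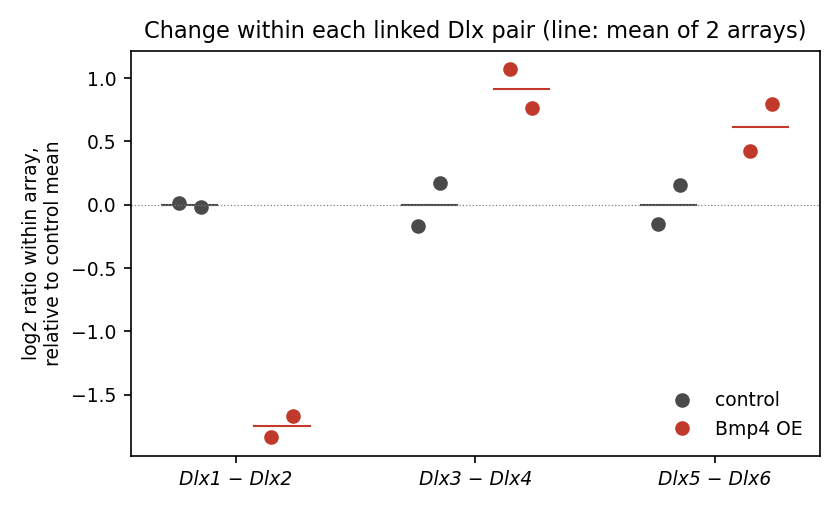
Log2 ratio of the first over the second gene of each linked pair within each array (vertical axis), relative to the mean of the control arrays, with controls in grey and Bmp4 OE in red; lines give the mean of 2 arrays. The ratio lies at -1.84 and -1.67 for Dlx1 over Dlx2 in Bmp4 OE, and above both controls for Dlx3 over Dlx4 (1.07 and 0.76) and Dlx5 over Dlx6 (0.43 and 0.80).

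Dlx3, a gene of the distal arch and of surface ectoderm, was higher in Bmp4 OE. Its probe (mMC001112) read 10.49 and 10.62 in controls and 11.47 and 11.26 in Bmp4 OE arrays (log2 intensity), with no overlap. Dlx3 rose 1.75-fold, with a log2 fold change of 0.81 ± 0.12 (SE; 95% interval 0.50 to 1.12; limma, adjusted p = 0.0180). Of all probes, 94.8% had a smaller change in either direction.

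Dlx4, whose known domain in the arch resembles that of Dlx3, did not follow it. The probe (mMC000826) read 8.24 and 8.03 in controls and 7.98 and 8.08 in Bmp4 OE arrays, and the groups overlapped. The log2 fold change was -0.11 ± 0.12 (SE; 95% interval -0.41 to 0.20; limma, adjusted p = 0.598). The lower end of the Dlx3 interval lay above the upper end of the Dlx4 interval. Within arrays, the log2 ratio of Dlx3 over Dlx4, relative to the control mean, was -0.17 and 0.17 in controls and 1.07 and 0.76 in Bmp4 OE arrays. It changed by 0.92 ± 0.23 (SE) on the log2 scale, without overlap (exact permutation test, two-sided, p = 0.333).

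Dlx5, which with Dlx6 specifies the lower jaw, showed no detectable change. Its probe (mMC008361) read 8.63 and 8.49 in controls and 8.61 and 8.73 in Bmp4 OE arrays (log2 intensity), and the groups overlapped. The log2 fold change was 0.11 ± 0.11 (SE; 95% interval -0.17 to 0.39; limma, adjusted p = 0.553). With 2 arrays per group, the interval gives the changes compatible with the data and is not a limit of detection.

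Dlx6 was read lower in both Bmp4 OE arrays but did not pass. The probe (mMC013039) read 11.15 and 10.70 in controls and 10.55 and 10.30 in Bmp4 OE arrays (log2 intensity). The groups were separated by 0.15, less than the difference between the 2 controls. The log2 fold change was -0.50 ± 0.18 (SE; 95% interval -0.96 to -0.04; unadjusted p = 0.0368, adjusted p = 0.125 in limma). It was -0.28 without control replicate 1 and -0.73 without control replicate 2, and the SD between controls, 0.32, was the largest of the 6 genes in either group. The log2 ratio of Dlx5 over Dlx6 changed by 0.61 ± 0.24 (SE), without overlap between groups (exact permutation test, two-sided, p = 0.333).

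**Figure D3:**
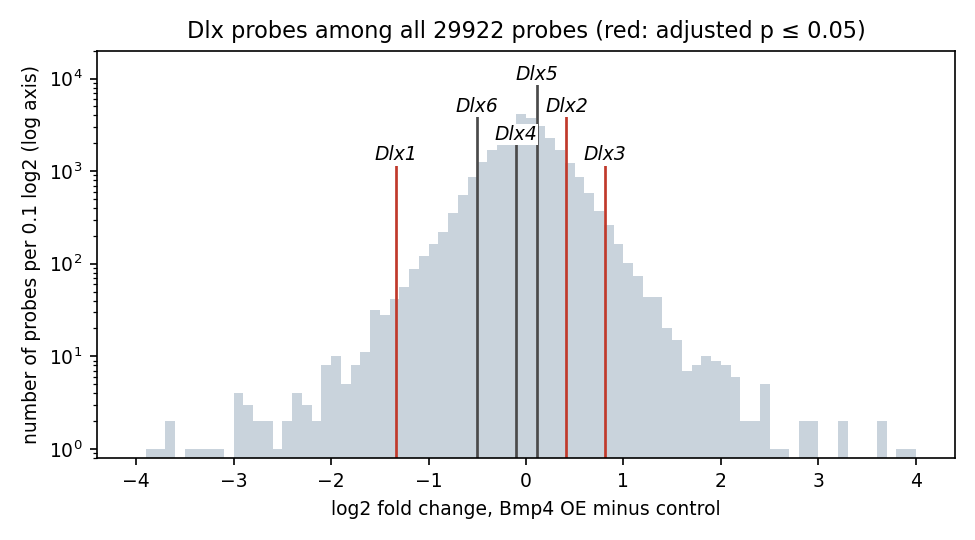
Distribution of the log2 fold change, Bmp4 OE minus control, over all 29922 probes (horizontal axis; number of probes per bin on a log axis), with the 6 Dlx probes as vertical lines, red where the adjusted p was at most 0.05 and grey otherwise; line heights only separate the labels. Dlx1 lies in the lower tail at -1.34, Dlx3 in the upper shoulder at 0.81, and Dlx4 and Dlx5 near the centre at -0.11 and 0.11.

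The 3 calls rest on the 4 arrays together. Leaving out any array left 1 residual degree of freedom, and 0 of 29922 probes then passed the adjusted threshold in limma. The log2 fold changes of Dlx1, Dlx2 and Dlx3 then ran from -1.39 to -1.28, 0.39 to 0.45 and 0.71 to 0.92. These 3 genes were picked because they passed on all 4 arrays, so their keeping of direction is no independent support. The probes' sequences were not used here, so whether a probe also reads a paralog, or the antisense transcripts that overlap Dlx1, Dlx4 and Dlx6 in the RefSeq gene table, is not known. Transcripts of these loci without a protein (Dlx1as, Dlx4os, Dlx6os1 and Dlx6os2) had no named probe here.

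Genes beside the pairs were examined for description only. The 3 nearest measured genes on each side of each pair were taken from the RefSeq gene table (GRCm38.p6). Of these 18 genes, 0 rose, 4 fell and 14 did not pass in limma, and 9 had an unadjusted p under 0.05. Of all named genes, 7.39% rose and 9.54% fell, and 33.0% of all probes had an unadjusted p under 0.05. At a share of 7.39%, 18 genes are too few for 0 rises to be read as a result. The log2 fold changes of the 18 genes ran from -0.97 to 0.33, with a median of -0.28. Around Dlx1 and Dlx2, Hat1, a histone acetyltransferase, fell (log2 fold change -0.51), whereas Metap1d and Platr26, the nearest measured genes on either side, had -0.18 and 0.11 and did not pass. Around Dlx3 and Dlx4, Fam117a fell (-0.59), and Itga3, an integrin subunit, had -0.40 and did not pass. Around Dlx5 and Dlx6, Tac1, which encodes the neuropeptide substance P, fell (-0.97), as did Dync1i1, a dynein chain whose gene is known to carry Dlx5 and Dlx6 enhancers (-0.71). Sem1, the nearest gene before Dlx5 and Dlx6, had 0.33 and did not pass.

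Around the family, 7 lists of genes known to act upstream of, beside or downstream of Dlx genes were examined, each gene through its brightest probe. They held 42 measured genes other than Bmp4, of which 7 rose, 15 fell and 20 did not pass, a share of 52.4%. Of all named genes, 16.9% passed, 7.39% as higher and 9.54% as lower. Their median log2 fold change was -0.17, against 0 for all named genes. The lists were chosen with results of these data known, so the share describes them and no more.

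Among signals upstream of the Dlx genes in the arch, more fell than rose. Of 9 measured genes, 2 rose, 5 fell and 2 did not pass (median log2 fold change -0.85). The count and the median include Bmp4, whose rise was set by the design, so Shh was the only other rise. Bmp4 itself read 11.96 and 12.07 in controls and 15.27 and 15.31 in Bmp4 OE arrays, a log2 fold change of 3.28 towards the top of the scale at 16. Shh, a signal of the oral epithelium, rose (0.78). Fgf8, the epithelial signal that induces proximal Dlx expression, read 8.27 and 8.34 in controls and 7.45 and 7.23 in Bmp4 OE arrays, and fell (log2 fold change -0.97). Fgf9, Bmp7, the AP-2 factor gene Tfap2b and Twist1, a mesenchymal helix-loop-helix factor, also fell (-0.85, -1.26, -0.95 and -1.19). Bmp2 and Tfap2a had -0.45 and -0.16 and did not pass.

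The endothelin-1 pathway, which switches on Dlx5 and Dlx6 in the lower jaw, showed 1 rise and 1 fall among 6 measured genes, and 4 did not pass (median log2 fold change 0.22). The ligand gene Edn1 read 7.44 and 7.53 in controls and 7.50 and 7.81 in Bmp4 OE arrays, with overlap between groups (log2 fold change 0.17, adjusted p = 0.446 in limma). The converting enzyme gene Ece1 had 0.35 and did not pass. Mef2c, a MADS-box factor that relays the signal to Dlx5 and Dlx6, rose (0.80), and Gna11, a G protein subunit, fell (-0.65), while Gnaq, the related subunit, had 0.02 and Plcb3, a phospholipase of the pathway, 0.28, neither passing. The receptor gene Ednra had no named probe here.

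Lower-jaw genes known to need Dlx5 and Dlx6 were split. Of 11 measured, 2 rose, 4 fell and 5 did not pass, with a median log2 fold change of -0.02. Hand1, a helix-loop-helix factor of the distal midline, read 7.95 and 8.00 in controls and 9.90 and 9.93 in Bmp4 OE arrays, and rose (log2 fold change 1.94), while its relative Hand2 had -0.02 and did not pass. Rgs5, also a marker of pericytes, rose (2.95) from controls dimmer than the lower quartile of the array, 6.79. The homeobox genes Pitx1, Gbx2 and Gsc fell (-1.28, -1.16 and -0.95), as did Bmp7. Alx4 and Cited1 had 0.06 and 0.19 and did not pass. The second Alx4 probe gave 0.585 and did not pass either.

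Genes of the upper jaw or the proximal arch fell more often than they rose. Of 8 measured, 5 fell, 1 rose and 2 did not pass, with a median log2 fold change of -1.14. Barx1, a homeobox gene of the proximal and molar mesenchyme that depends on Dlx1 and Dlx2, read 12.57 and 12.55 in controls and 9.37 and 9.46 in Bmp4 OE arrays, and fell by 3.15 on the log2 scale. Cyp26a1, a retinoic acid degrading enzyme, Pou3f3, a POU factor of the upper jaw, and Emx2, a homeobox gene, fell (-2.03, -1.60 and -1.53), the last 2 to below the lower quartile. Wnt5a, a secreted WNT ligand, fell (-0.75). Meis2, a TALE homeobox gene, rose (1.03), although its second probe gave 0.40 and did not pass. Foxl2, a forkhead gene, differed more within the Bmp4 OE group (10.05 and 11.21) than between groups, and did not pass.

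Among genes for proteins that bind or cooperate with Dlx proteins, the Msx genes rose. Msx homeodomain proteins pair with Dlx proteins and oppose them at shared targets. Msx2 read 12.59 and 12.71 in controls and 14.31 and 14.45 in Bmp4 OE arrays (log2 fold change 1.73), and Msx1 rose by 1.01. Maged1, which binds Dlx5, Grip1 and Smad4 had 0.38, 0.31 and 0.23 and did not pass, so 2 of 5 rose and 0 fell in this list (median 0.38). The second probes of Grip1 and Smad4 gave -0.150 and -0.255 and did not pass either. Of 5 measured bone genes with known input from Dlx5 or Dlx3, 1 fell, 0 rose and 4 did not pass (median -0.41). Spp1, a bone matrix gene, fell to below the lower quartile (-1.78), and Runx2, Sp7, Alpl and Ibsp had -0.39, -0.41, -0.42 and -0.04.

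**Figure D4:**
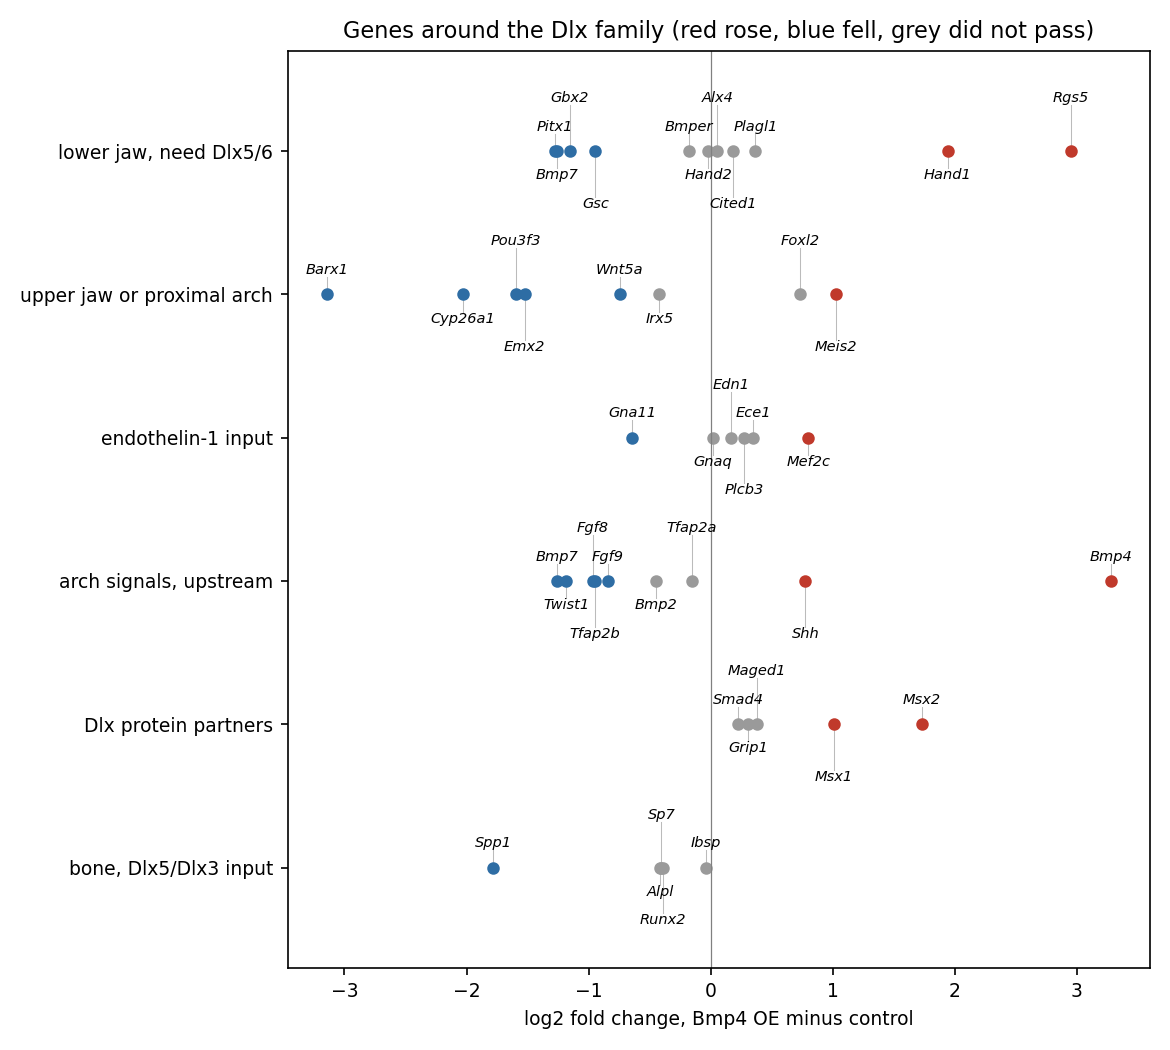
Log2 fold change, Bmp4 OE minus control (horizontal axis), of each measured gene in 6 lists of genes around the Dlx family (rows; the list of transcripts of the Dlx loci had no measured member); red points rose, blue points fell at an adjusted p of 0.05 and grey points did not pass. The upper-jaw and proximal row runs from -3.15 (Barx1) to 1.03 (Meis2), and the lower-jaw row from -1.28 (Pitx1) to 2.95 (Rgs5); label heights have no meaning.

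The genes whose profile over the 4 arrays lay nearest to a Dlx gene were found by the distance between mean-centred log2 values, among 13797 other genes at or above the lower quartile. For Dlx1 these were Col27a1 and Col6a3, which encode collagen chains, and Fanci, a DNA repair gene (distances 0.043, 0.062 and 0.055). For Dlx2 they were Acot13, Cmc1 and Daam2 (0.017, 0.028 and 0.030), and for Dlx3 they were Umodl1, 2300009A05Rik and Arhgap4 (0.0087, 0.038 and 0.041). No other Dlx gene was among them. With 4 arrays, likeness means little more than a change of the same size.

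Markers of the tissue were present. Of 7 mesenchymal markers, 1 rose (Prrx2), 1 fell (Twist1) and 5 did not pass; Pdgfra read between 13.85 and 13.91 and Vim at the top of the scale on every array. Of 11 epithelial markers, 5 rose (Cdh1, Krt8, Krt18, Perp and Cldn6), 2 fell (Krt5 and Krt14) and 4 did not pass, and none was dimmer than the lower quartile throughout. Their summed linear intensity was 42896 to 44412 in controls and 38169 to 40405 in Bmp4 OE arrays. Krt14, the brightest of the 11, weighed most in this sum. It read 14.73 and 14.85 in controls and 13.96 and 14.04 in Bmp4 OE arrays (log2 intensity). The fall of the sum therefore says little of the 5 markers that rose. Epithelial markers thus moved in both directions beside the rise of Dlx3 and Dlx2, and their part in it was not tested. Of 6 endothelial, 7 neuronal, 5 muscle and 3 erythroid markers, 0, 1 (Isl1), 2 (Des and Actc1) and 0 rose, and the only one of these that fell was the erythroid Alas2. The second Actc1 probe gave -0.085 and did not pass. Among all named genes, 7.39% passed as higher and 9.54% as lower. Of the neuronal markers, Pou4f1 and Nefl were dimmer than the lower quartile whether Bmp4 was overexpressed or not. Summed linear intensities in controls and in Bmp4 OE were 165356 to 167277 and 148322 to 158520 for mesenchyme, 6454 to 6581 and 7719 to 7783 for endothelium, 3210 to 3436 and 8408 to 8557 for neurons, 4494 to 4610 and 6078 to 6343 for muscle, and 132044 to 137908 and 126092 to 129748 for erythroid cells. Vim in the mesenchymal sum read 16 throughout, and the erythroid genes Hbb-bh1 and Hba-x read between 15.75 and 16. A rise of these genes could hardly show in those sums. Without Isl1, the neuronal sum was 2579 to 2784 in controls and 3295 to 3549 in Bmp4 OE. None of the other neuronal markers passed. The brightest probes of Elavl4 and Prph, used in the sum, gave 0.42 and 0.88. Their other probes went the other way, at -0.375 and -0.395 for Elavl4 and -0.270 for Prph, and did not pass either. The part of the marked cell types in the Dlx results was not tested.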

How the data were processed

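Per the labels' protocols, total RNA of whole mandibles was amplified with aminoallyl nucleotides, and Cy5 was then attached. The deposited table holds log2 intensity for 29922 probes on 4 arrays. The log base was read from the maximum of 16, the top of a 16-bit scale. The deposited log2 columns are identical once sorted (largest difference 0). They were thus quantile-normalised before deposit, which hides any shift of most genes. The scanner, the background correction and the software were not given in the sources used here. The number of arrays, 2 per group, limits the precision.

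Probes were named from the platform annotation: 21020 had 1 symbol, 0 several and 8902 none; 3410 older symbols were updated through the GRCm38.p6 RefSeq table. The probe with the highest mean stood for a gene. Groups were taken from titles. All probes were fitted with limma 3.58.1 in R 4.3.3 (lmFit, eBayes, two-sided), without filter or covariate, adjusted by Benjamini-Hochberg over all probes. The eBayes step drew the variance of each probe towards that of all probes (prior of 3.59 degrees of freedom beside 2 residual ones). The fit was tested on simulated data. The rule for the members is by symbol alone, but the family and the lists were chosen with earlier results of these data known. Named genes were all Dlx probes, list members, the 3 nearest measured genes per side of each pair and, for each Dlx gene that passed, the 3 nearest profiles. Alternatives were renormalisation, median centring, an offset of 50, filters on dim probes, a variance trend, the replicate number as a block, leaving out each array and averaging probes.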

Additional observations from a re-analysis of the deposited data

How the results depend on the processing

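Renormalising by quantiles, centring on the median, adding 50 on the linear scale, dropping probes below the lower quartile or the median, and a variance trend kept all 3 Dlx calls (limma, adjusted p of Dlx2 between 0.0314 and 0.0498), and no log2 fold change of the 6 genes and no change within a pair reversed under any alternative run. The 6 members had 1 probe each, so averaging probes gave the same values. With the replicate number as a block, 0 of 29922 probes, 0 of 6 Dlx probes, 0 of 43 list members and 0 of the 18 neighbouring genes passed in limma, where 8724, 4, 29 and 8 had an unadjusted p under 0.05. Blocked log2 fold changes were unchanged at -1.34 for Dlx1, 0.42 for Dlx2 and 0.81 for Dlx3, with adjusted p-values of 0.0745, 0.113 and 0.0889, and the fit had 1 residual degree of freedom. Deviations of same-numbered arrays correlated with r = -0.071 across probes. A single value over all probes cannot show whether same-numbered arrays were paired, which the labels do not state. Without an array, 0 probes, 0 Dlx probes, 0 list members and 0 neighbouring genes passed (6020 to 7947, 3 to 4, 25 to 27 and 4 to 7 at an unadjusted p under 0.05), and log2 fold changes ran from -1.39 to -1.28 for Dlx1, 0.39 to 0.45 for Dlx2 and 0.71 to 0.92 for Dlx3. All probes passing numbered 4427, list members 23 and neighbours 4 with every array. Changes that quantile normalisation removed from the deposited values cannot be recovered by any of these settings.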
